A study of Mus musculus with 4 samples.

Results

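The genes described here encode inhibitors of the cyclin-dependent kinases (CDKs) and the retinoblastoma family, and they were followed after loss of FBL in mouse embryonic stem cells. They are the 4 INK4 genes Cdkn2a, Cdkn2b, Cdkn2c and Cdkn2d, the CIP/KIP genes Cdkn1b and Cdkn1c, and the retinoblastoma genes Rb1, Rbl1 and Rbl2. Cdkn1a, another CIP/KIP gene, is not among them and is described with the p53 branch. Every probe assigned by its accession to a RefSeq transcript of one of these 9 genes was taken, which gave 12 of the 41174 probes on the array. The array had a probe for 17016 named genes in all. The study used embryonic stem cells in which tetracycline (Tc) controls a knock-down of FBL, fibrillarin, the nucleolar enzyme that methylates ribosomal RNA. The 2 control samples were cultured with Tc at 1000 ng/mL, and the 2 FBL-kd samples were cultured without Tc, so that FBL was knocked down. Both groups carry the same inducible construct and were kept for 2 days on gelatin with leukaemia inhibitory factor (LIF). Neither a single-clone origin of the line nor separate cultures within a group are stated in the labels, so the p-values reflect the spread between these 4 samples alone, and that spread may be technical. Removal of Tc and loss of FBL cannot be told apart in this design.

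CDKs 4 and 6 with D-type cyclins, and CDK2 with cyclins E and A, carry a cell from G1 into S phase by phosphorylating the retinoblastoma proteins. INK4 proteins bind the D-type kinases themselves, CIP/KIP proteins bind cyclin–CDK complexes, and unphosphorylated retinoblastoma proteins hold E2F transcription factors in check. Embryonic stem cells are known for a short G1 phase, for low levels of CDK inhibitors and for retinoblastoma proteins kept largely phosphorylated.

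Values are log2 signals relative to the 75th percentile of each array, so 0 is the 75th percentile and 1 unit is a doubling of signal. They are given in the order control 1, control 2, FBL-kd 1 and FBL-kd 2, and levels of different probes are not compared. A probe was tested if either group had it well above background on both of its arrays, and it rose or fell if its limma p, adjusted over all tested probes, was under 0.05. Changes are FBL-kd minus control, ± marks the fitted standard error, and n = 2 per group. Fbl itself had values of 8.63, 8.12, 5.98 and 5.94. Both FBL-kd arrays lay below both controls, and Fbl fell by 2.41 ± 0.25 on the log2 scale, or 5.32-fold (limma adjusted p = 4.42e-04). Between 24495 and 26403 probes per array were well above background, and no spot was saturated. Precision is limited by having 4 arrays, and some dim probes, such as those of Rbl2, also moved with the background correction. Of the 10 embryonic stem cell markers listed, 9 had a probe, and all 9 were well above background on every array. Their summed level was 1065 and 874 times the 75th-percentile signal in the controls and 886 and 1159 times in FBL-kd. Dppa5a, at 9.44, 9.02, 9.20 and 9.74, made up most of each sum. Gene by gene, the changes of the 9 ran from −0.82 (Nanog) to 0.29 (Sox2), with 4 above 0 and 0 passing. Summed fibroblast markers were at 6.71 and 4.30 in the controls and 3.21 and 3.51 in FBL-kd, with Col3a1, Postn and Dcn well above background on no array. Thy1, at 2.68, 2.04, 1.55 and 1.67, made up most of each fibroblast sum. The summed levels were 0.491 and 0.274 against 0.290 and 0.283 for 6 primitive endoderm markers, and 12 and 8.87 against 9.11 and 9.60 for 6 trophectoderm markers. By the brightest tested probe of each gene, 1 marker passed in these 4 lists, Elf5, which was lower in FBL-kd (limma adjusted p = 0.0222) and well above background on 1 of the 2 FBL-kd arrays. A dimmer Sox17 probe of the primitive endoderm list was at least 1.52-fold higher in FBL-kd than in controls not well above background (limma adjusted p = 0.00112). Elf5 entered the test through the controls alone and this Sox17 probe through the FBL-kd arrays alone, so these values are a description. The brighter Sox17 probe did not pass (0.80, limma adjusted p = 0.114). A dimmer probe of Thy1, in the fibroblast list, fell by 1.35 (limma adjusted p = 0.00667), while the brighter Thy1 probe did not pass (−0.75, adjusted p = 0.140). Whether these other cell types had a part in the results below was not tested.

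Of the 12 probes, 10 entered the test and these covered all 9 genes. Of these, 2 rose, Cdkn2b and Rb1, 0 fell and 8 did not pass. Across the array 936 of 25077 tested probes rose, or 3.73%, and 620 fell, or 2.47%. The 10 tested probes had a median change of 0.34 and 9 of them had a change above 0, beside a median of −0.06 over all tested probes. Both FBL-kd values lay above both control values for 6 of the 10, a pattern held by 20.8% of all tested probes. The opposite pattern was held by 0 of the 10 and by 30.6% of all tested probes. The 10 include 2 probes for Rbl2, one of which entered the test through the FBL-kd arrays alone, so these counts and the median are a description.

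**Figure D1:**
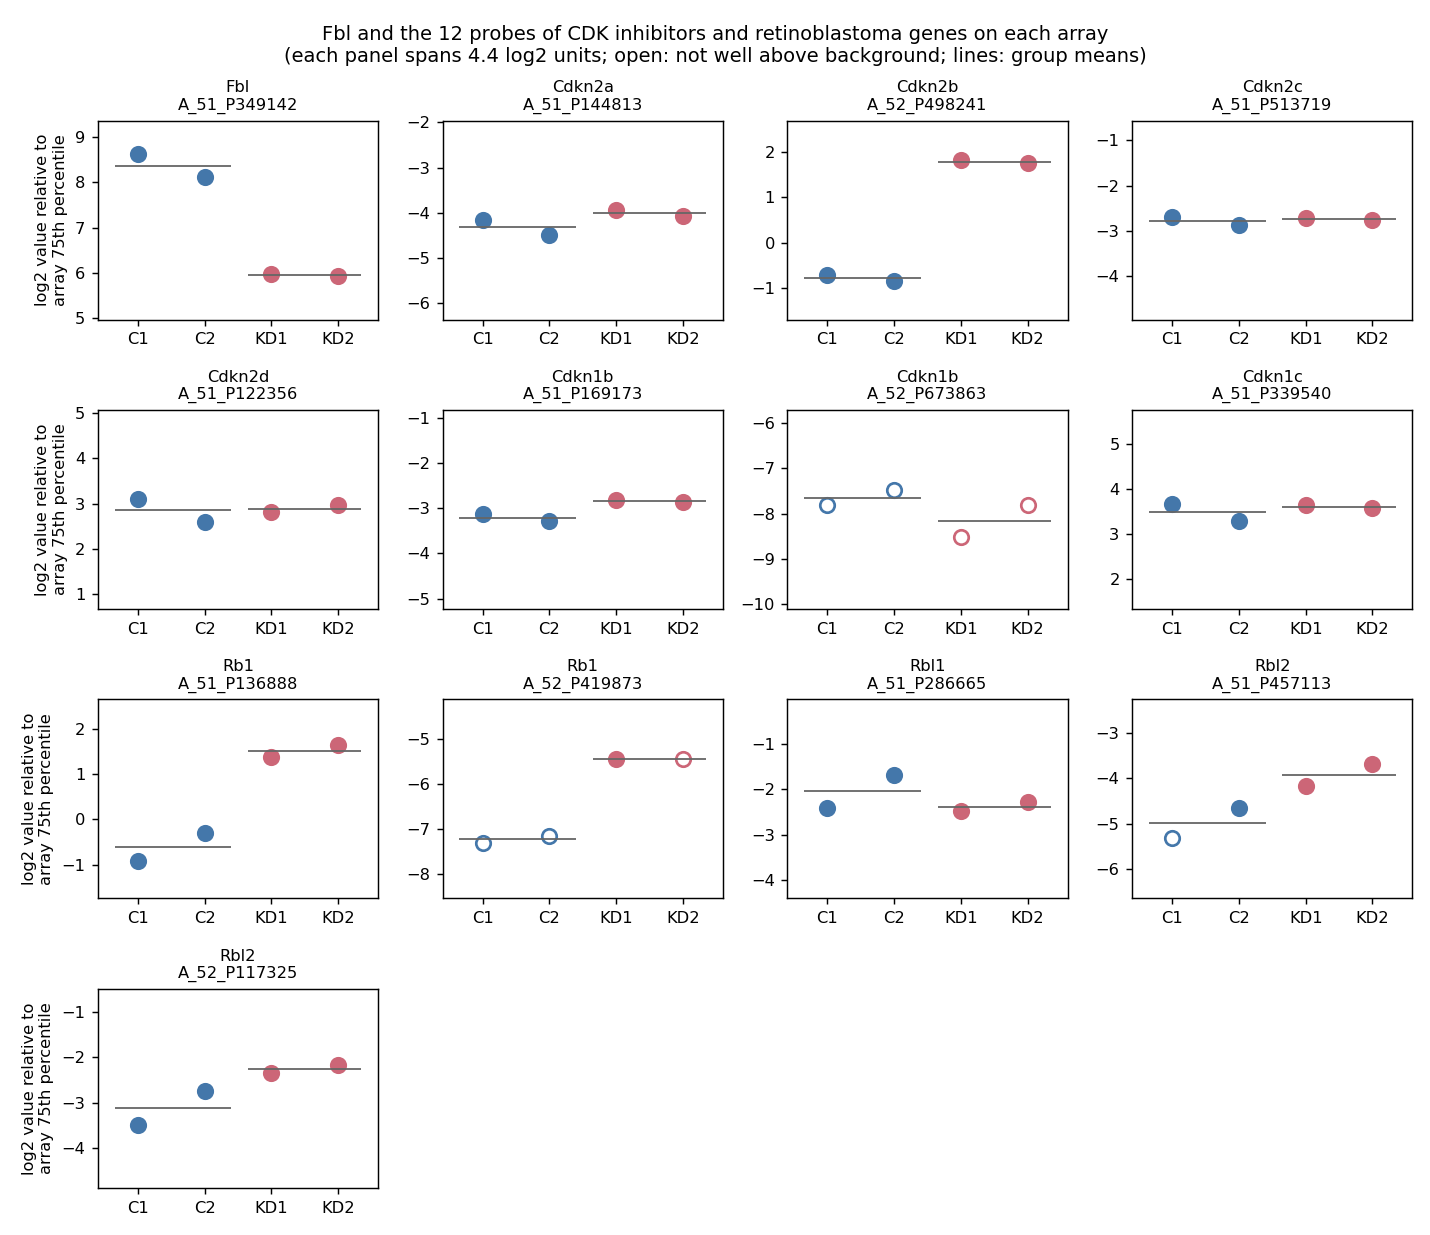
Log2 value relative to the 75th percentile of each array (vertical axis) on the 2 control arrays (C1, C2) and the 2 FBL-kd arrays (KD1, KD2) for Fbl and the 12 probes of the CDK inhibitor and retinoblastoma genes. Points are arrays, lines are group means, open points are not well above background, and every panel spans the same range, so that the separation of the groups at Cdkn2b and Rb1 can be set beside the overlap at Cdkn2c, Cdkn2d, Cdkn1c and Rbl1.

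Among the INK4 genes, Cdkn2b, which encodes p15, was the gene that rose. Its signal was −0.73, −0.85, 1.82 and 1.75. The samples of a group differed by 0.13 in the controls and 0.07 in FBL-kd, while the nearest control and FBL-kd values were 2.47 apart. The change was 2.57 ± 0.22 (95% interval 2.08 to 3.07, limma adjusted p = 2.18e-04), or 5.95-fold with an interval of 4.21 to 8.40. By size it ranked 79 of 25077 among changes from the largest rise down. The spot was well above background on all 4 arrays, with a processed signal of 338 and 442 in the controls and 2229 and 1681 in FBL-kd. Control 1, control 2 and FBL-kd 1 shared a slide and FBL-kd 2 was on another. Within the shared slide, which gives the same value as a fit with slide as a block, the change was 2.61. That comparison holds 1 FBL-kd array and gives all probes 1 variance, so its p-value is not given. With no filter on dim probes no probe of the array passed, and the limma adjusted p was 0.0997 for Cdkn2b and for Fbl.

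Cdkn2b lies next to Cdkn2a in the genome, and the RefSeq gene table places Mtap, Cdkn2a, Cdkn2b and Dmrta1 in that order among protein-coding genes of chromosome 4. Cdkn2a gives rise, from separate first exons, to p16, a kinase inhibitor, and to ARF, which binds MDM2. Its probe is named for 1 of 2 RefSeq messenger RNAs of the gene, and where it lies relative to the exons was not analysed here, so its signal is not assigned to p16 or to ARF. The 250 bases before each start of these neighbouring genes are shown because one gene rose and the other did not pass. They are from RefSeq on GRCm38.p6, read 5′ to 3′ on the minus strand, at chr4:89311033-89311282 for Cdkn2b, chr4:89294620-89294869 for the upstream start of Cdkn2a and chr4:89282193-89282442 for its downstream start. Capitals mark matches to the motifs searched.
Cdkn2b: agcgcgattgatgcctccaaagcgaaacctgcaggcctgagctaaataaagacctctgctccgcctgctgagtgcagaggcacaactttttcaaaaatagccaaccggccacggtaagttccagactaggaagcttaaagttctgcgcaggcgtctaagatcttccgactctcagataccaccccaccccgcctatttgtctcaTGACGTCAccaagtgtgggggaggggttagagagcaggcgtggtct
Cdkn2a, upstream start: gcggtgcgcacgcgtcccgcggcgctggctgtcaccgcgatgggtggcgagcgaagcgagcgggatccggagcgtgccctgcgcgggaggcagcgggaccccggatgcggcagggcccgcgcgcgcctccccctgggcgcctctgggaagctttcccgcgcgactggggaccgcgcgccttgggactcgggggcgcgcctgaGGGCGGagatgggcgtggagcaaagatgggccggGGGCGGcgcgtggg
Cdkn2a, downstream start: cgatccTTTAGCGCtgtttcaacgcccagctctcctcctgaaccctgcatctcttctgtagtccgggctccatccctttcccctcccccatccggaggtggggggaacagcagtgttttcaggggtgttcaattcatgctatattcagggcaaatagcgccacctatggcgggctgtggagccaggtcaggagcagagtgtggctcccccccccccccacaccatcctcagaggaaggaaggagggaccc
The motifs were searched on both strands, with overlaps allowed. They were TTTNGCGC (an E2F-type site, in 1.13% of 32851 RefSeq windows of this length), GGGCGG (the GC box, 32.7%), CCAAT (33.8%), TGACGTCA (the cAMP response element, 1.55%), CACGTG (an E-box, 6.02%) and TGATGNAA (an ATF4-type element, 3.45%). The Cdkn2b window held 1 match, a TGACGTCA 46 bases before the start. The upstream window of Cdkn2a held 2 GC boxes, 14 and 48 bases before the start, and the downstream window held 1 TTTNGCGC match 244 bases before the start. The share of G and C was 53.6% in the Cdkn2b window, 78.4% and 60.0% in the upstream and downstream windows of Cdkn2a, and 52.4% at the median of all windows. A match describes these letters and is not a measured binding site. Variants of these sites outside the 6 patterns were not searched, so a window without a match may still hold one. Of the 9 genes, 7 were in the promoter table, and Cdkn1c and Rb1 had no entry. The Rbl1 window held a TTTNGCGC match 18 bases before its start and 1 GC box, and the Rbl2 window held no match to any of the 6 motifs. GC boxes numbered 3 in the window of Cdkn2d, 3 at one of the starts of Cdkn2c and 1 in that of Cdkn1b. CCAAT matches numbered 2 in the window of Cdkn1b and 1 in that of Cdkn2d. The other start of Cdkn2c held no match to any of the 6 motifs.

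Cdkn2a was printed on the array 10 times, and its mean signal was −4.16, −4.48, −3.93 and −4.07. Both FBL-kd arrays were above both controls, but the nearest values were 0.086 apart, less than the 0.32 between the controls. The change of 0.32 ± 0.23 did not pass (95% interval −0.20 to 0.84, limma adjusted p = 0.506), and it was 0.48 without control 1 (adjusted p = 0.0743) and 0.16 without control 2 (0.447). All spots were well above background, though dim. The median pixel signal per spot averaged 67.4, 77.6, 73.8 and 63.0, with a local background of 17.4, 20.4, 12.2 and 19.2. Spots within an array spread with a standard deviation of 0.078 and 0.093 in the controls, after 2 and 1 spots marked as outliers were left out, and of 0.20 and 0.18 in FBL-kd. Mtap, on the other side of Cdkn2a, encodes an enzyme of methionine salvage. It had values of 0.57, 1.08, 0.38 and 0.40 and a change of −0.44 ± 0.25 (limma adjusted p = 0.374). At this locus, then, 1 of the 3 measured neighbours passed the test, and the differences between the neighbours' changes were not tested.

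The other INK4 genes were measured without a detectable change. Cdkn2c, which encodes p18, had values of −2.68, −2.88, −2.72 and −2.76. Both FBL-kd values lay between the controls, and the change was 0.04 ± 0.23 (95% interval −0.46 to 0.54, limma adjusted p = 0.945). Cdkn2d, which encodes p19, had values of 3.12, 2.60, 2.81 and 2.97. Again the FBL-kd values lay between the controls, which were 0.52 apart, and the change was 0.03 ± 0.25 (95% interval −0.53 to 0.59, limma adjusted p = 0.964). The sign of both changes turned when control 2 was left out, to −0.06 for Cdkn2c and −0.23 for Cdkn2d. The intervals of both genes allow changes of up to about 1.5-fold in either direction, so equal expression is not shown.

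**Figure D2:**
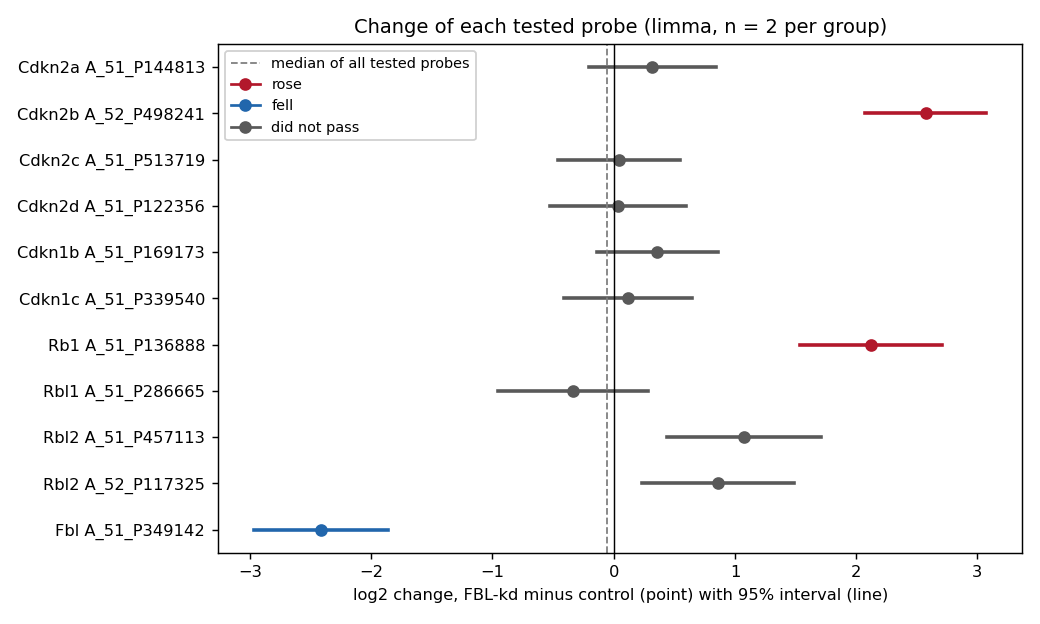
Log2 change, FBL-kd minus control (horizontal axis), with its 95% interval from limma for the 10 tested probes and Fbl, n = 2 per group. The intervals of Cdkn2b (2.08 to 3.07) and Rb1 (1.53 to 2.71) lie above those of the other genes, except that the interval of Rbl2 A_51_P457113 (0.44 to 1.71) overlaps that of Rb1; both Rbl2 intervals lie above 0 without passing adjustment, and the dashed line is the median of all tested probes (−0.06).

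Of the CIP/KIP genes, neither Cdkn1b nor Cdkn1c passed. Cdkn1a, a CIP/KIP gene outside this set, rose and is described below with the p53 branch. Cdkn1b encodes p27, an inhibitor of CDK2 complexes that is also removed by SKP2-dependent proteolysis. Its 10-spot probe had means of −3.12, −3.29, −2.82 and −2.87. Both FBL-kd arrays were above both controls, with 0.25 between the nearest values. The change of 0.36 ± 0.22 did not pass (95% interval −0.14 to 0.86, limma adjusted p = 0.420). Spots within an array spread with a standard deviation of 0.049 to 0.11. A separate single-spot probe for Cdkn1b gave −7.82, −7.48, −8.53 and −7.82, was not well above background on any array and was not tested. Cdkn1c encodes p57, a maternally expressed imprinted inhibitor. Its signal was 3.68, 3.30, 3.64 and 3.58, and both FBL-kd values lay between the controls. The change was 0.12 ± 0.24 (95% interval −0.41 to 0.65, limma adjusted p = 0.837), and it was −0.07 without control 2.

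Of the retinoblastoma genes, Rb1 rose. Rb1 encodes pRB, the founding member of the family and a repressor of activating E2F proteins. The means of its 10 spots were −0.91, −0.31, 1.39 and 1.64. The controls differed by 0.60 and the FBL-kd arrays by 0.26, while the nearest control and FBL-kd values were 1.69 apart. The change was 2.12 ± 0.26 (95% interval 1.53 to 2.71, limma adjusted p = 0.00122), or 4.36-fold with an interval of 2.90 to 6.55, and it ranked 175 of 25077 from the largest rise down. Within the shared slide, with 1 FBL-kd array, it was 1.99, and with no filter on dim probes the limma adjusted p was 0.127.

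The repeated spots show how precisely each array read Rb1. They ranged from −1.0 to −0.82 on control 1, from −0.39 to −0.22 on control 2, from 1.29 to 1.46 on FBL-kd 1 and from 1.54 to 1.72 on FBL-kd 2. The standard deviation within an array was 0.057 to 0.065, so the 0.60 between the controls exceeds the spot-to-spot spread. Spots of 1 array share 1 RNA sample and are not replicates of the condition. A further single-spot probe for Rb1 gave −7.29, −7.14, −5.45 and −5.44. It was well above background on FBL-kd 1 alone and was not tested.

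**Figure D3:**
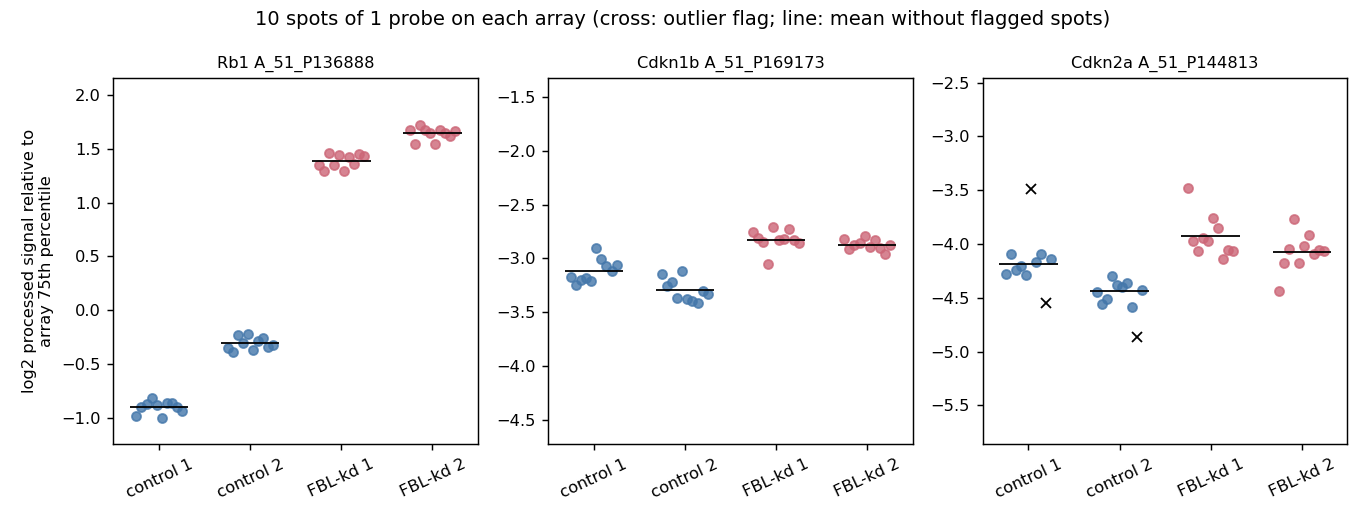
Log2 processed signal, with each array's 75th percentile set to 0 (vertical axis), of the 10 spots of the Rb1, Cdkn1b and Cdkn2a probes on each array. Points are spots, crosses are spots with an outlier flag and lines are means without them. Rb1 spots ranged from −1.0 to −0.22 over the controls and from 1.29 to 1.72 over FBL-kd, whereas spots of Cdkn2a and Cdkn1b on control and FBL-kd arrays overlap.

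Rbl2, which encodes p130, the family member that binds E2F4 in quiescent cells, was above the controls at both of its probes without passing adjustment. The probe A_51_P457113 gave −5.32, −4.66, −4.16 and −3.67 and was not well above background on control 1. Its change was 1.07 ± 0.29 (95% interval 0.44 to 1.71, limma unadjusted p = 0.00377, adjusted p = 0.0563). The probe A_52_P117325 gave −3.50, −2.73, −2.35 and −2.16, with a change of 0.86 ± 0.28 (95% interval 0.23 to 1.49, limma unadjusted p = 0.0122, adjusted p = 0.114). The groups did not overlap at either probe, with 0.50 and 0.38 between the nearest values, but the controls were 0.66 and 0.77 apart. With normexp background correction the changes were 0.43 and 0.39 (limma adjusted p = 0.365 and 0.420). Without control 2 both passed (1.41 with limma adjusted p = 0.0392 and 1.24 with 0.0222), and without control 1 the changes were 0.74 and 0.48 and neither passed (0.0906 and 0.0840). Both fits take their spread from the FBL-kd pair alone.

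Rbl1, which encodes p107 and is itself known as an E2F target, was the member with a change below 0. Its values were −2.40, −1.68, −2.48 and −2.28. FBL-kd 2 lay between the controls, which were 0.72 apart, so the groups overlapped. The change of −0.34 ± 0.28 did not pass (95% interval −0.95 to 0.28, limma adjusted p = 0.560). Its value rests on the controls, at −0.70 without control 1 (limma adjusted p = 0.0456) and 0.02 without control 2, and it was 0.0052 with normexp correction. Rb1, Rbl2 and Rbl1 thus had changes of 2.12, of 1.07 and 0.86, and of −0.34, and the differences between these changes were not tested.

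**Figure D4:**
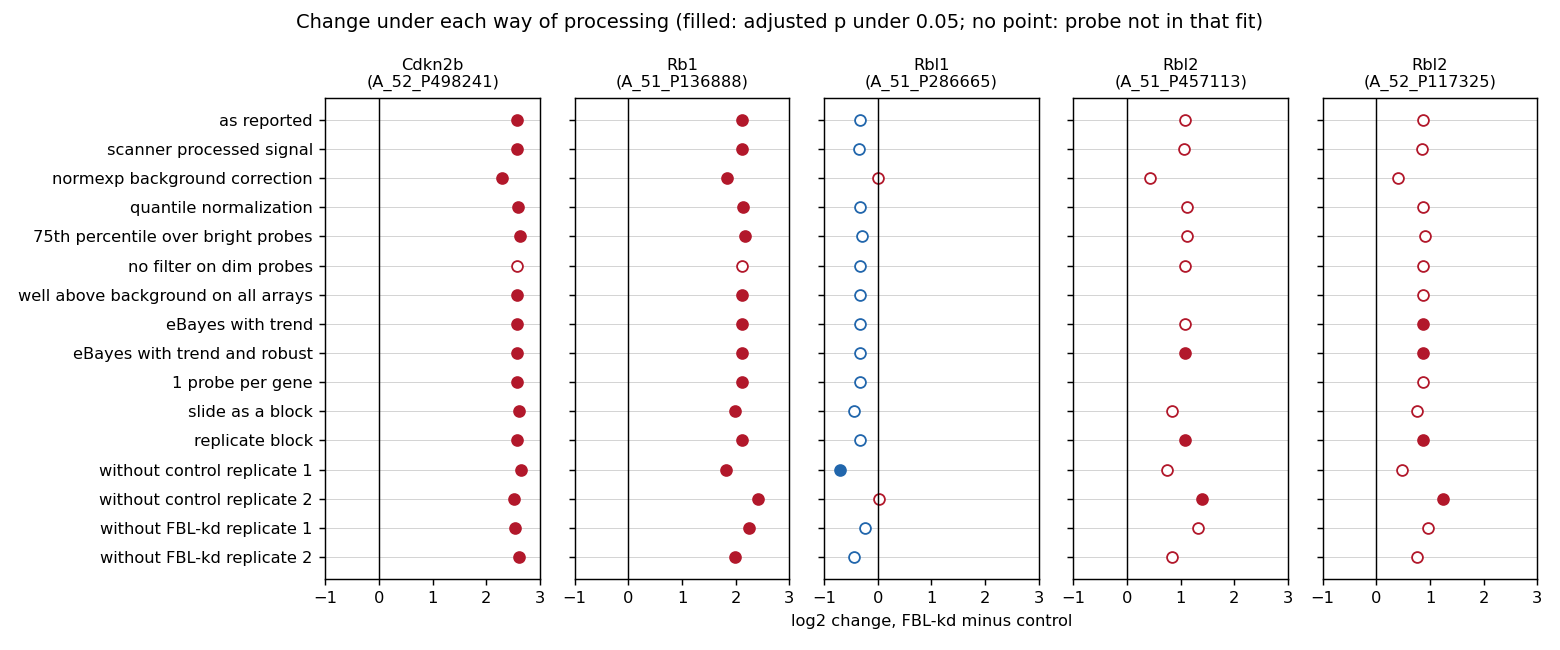
Log2 change, FBL-kd minus control (horizontal axis), of Cdkn2b and the retinoblastoma genes as reported and under 15 other ways of processing. Filled points have a limma adjusted p under 0.05, and a missing point means that the probe was not in that fit. Cdkn2b lay between 2.30 and 2.64 and Rb1 between 1.82 and 2.42. All probes shown moved with the background correction, where Cdkn2b was 2.30 and Rb1 was 1.84. Rb1, Rbl1 and both Rbl2 probes moved more than Cdkn2b with the control left out.

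The genes whose pattern over the 4 arrays was most like that of Cdkn2b, by Euclidean distance after subtracting each probe's mean, were Cnga3, Dll1 and Ttll6. Cnga3, a subunit of the cone photoreceptor channel, lay at a distance of 0.066 with values of −4.04, −4.11, −1.41 and −1.54. Dll1, a Notch ligand, lay at 0.13 with values of −2.35, −2.55, 0.30 and 0.17. Ttll6, a tubulin polyglutamylase, lay at 0.18 with values of −1.93, −1.84, 0.62 and 0.59. Their changes were 2.60, 2.69 and 2.49. They were chosen for this likeness, so these values are a description.

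The genes around these inhibitors were read in 8 lists with 114 genes, 109 of which had a tested probe, each gene being taken by its brightest tested probe. Of these, 5 rose and 1 fell, or 5.50%, beside 6.7% of the 12814 named genes tested in this way, of which 4.35% rose and 2.35% fell. The median change of those 12814 genes was −0.06 and 44.4% were above 0. All but 1 of the calls in these lists ended in at least 1 fit besides the one with no filter on dim probes, the exception being Mdm2. Within the shared slide or without FBL-kd 1, 1 FBL-kd array is left and all probes are given 1 variance. A call in those 2 fits turns on the size of the change alone, so their p-values are not given for these genes.

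Among the kinases and cyclins that the inhibitors act on, 1 of 14 tested genes rose and 0 fell. Ccna1, which encodes the germline cyclin A1, had values of −3.74, −4.29, −3.07 and −2.99. Both FBL-kd arrays lay above both controls and the change was 0.98 ± 0.25 (limma adjusted p = 0.0484). The call ended with quantile normalization (limma adjusted p = 0.0604) and on the scanner's own processed signal (0.0520). The change was 1.03 without FBL-kd 1 and 0.94 within the shared slide, and the call ended in both. The other 13 genes had changes below 0, from −0.77 to −0.01, and none passed. The median of the list was −0.34. Cdk6, the partner kinase of INK4 proteins, lay at that lower end, and it is named after its values were seen because its probes differ. The brighter probe gave 1.30, 1.04, 0.43 and 0.38, with a change of −0.77 ± 0.23 (limma adjusted p = 0.0844). The dimmer probe gave −2.95, −5.31, −6.23 and −7.45. It was well above background on the controls alone and entered the test through them alone, so its values are a description. It was at least 3.31-fold lower in FBL-kd against the lowest signal well above background, and passed (limma adjusted p = 0.0317). Its controls lay further apart than any group of the brighter probe.

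The E2F, DP and MuvB genes, some of which encode factors that the retinoblastoma proteins bind, held 0 calls among 15. Their changes ran from −0.54 to 0.19 with a median of −0.14 and 2 above 0. Mybl2, the brightest of them, encodes B-MYB and had values of 6.75, 6.07, 6.34 and 6.31 (change −0.09 ± 0.27, limma adjusted p = 0.903). The FBL-kd values lay between the controls.

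E2F target genes of S phase, such as those of the MCM helicase and of nucleotide synthesis, are the genes that active retinoblastoma proteins are known to repress. Of 20, 0 passed, and their changes ran from −0.64 to 0.08 with a median of −0.16 and 2 above 0. Mcm6, a helicase subunit and the brightest, had values of 7.44, 7.39, 7.17 and 7.18. Both FBL-kd values were below both controls, as in 30.9% of all genes (21.8% had both above), and the change of −0.24 ± 0.22 did not pass (limma adjusted p = 0.615). The chromatin partners of the retinoblastoma proteins also held 0 calls among 10, with changes from −0.54 to 0.71 and a median of 0.21. Smarca4, the BRG1 remodeller and the brightest, had a change of −0.03 ± 0.24 (limma adjusted p = 0.962).

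**Figure D5:**
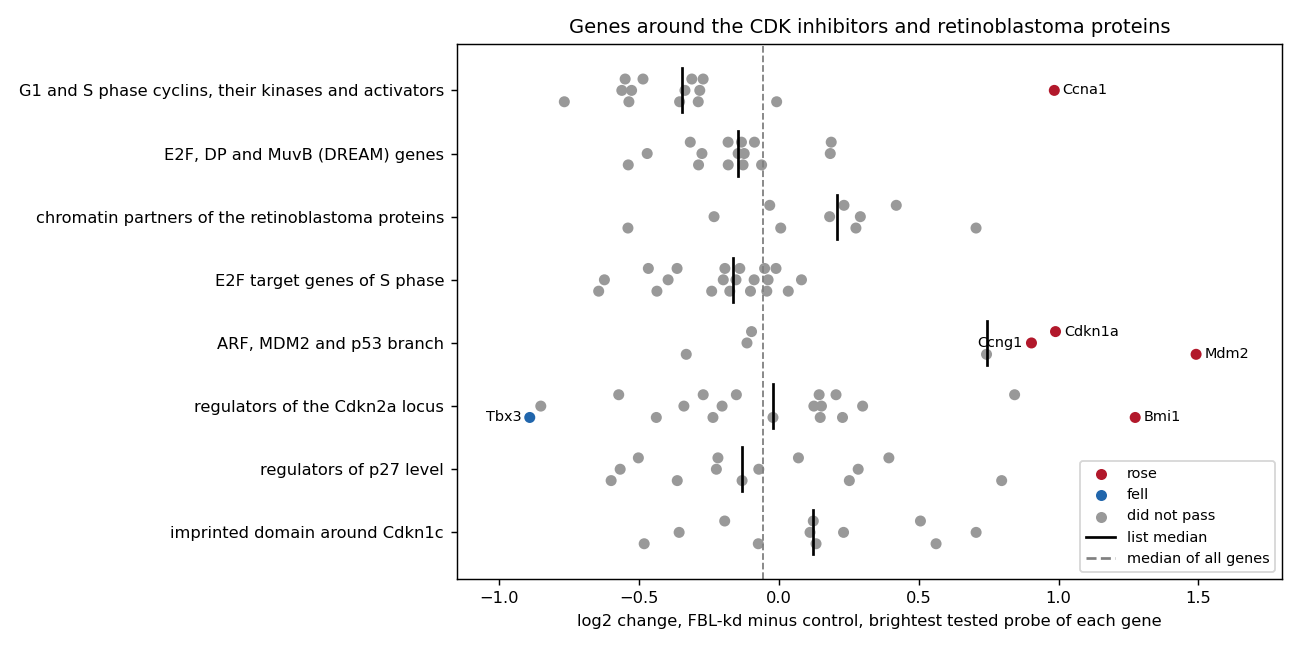
Log2 change, FBL-kd minus control (horizontal axis), of each tested gene in 8 lists of genes around the CDK inhibitors and retinoblastoma proteins (vertical axis), by the brightest tested probe. Points are genes coloured by the limma call, vertical bars are list medians and the dashed line is the median of all genes (−0.06); the 5 rising genes are Ccna1, Cdkn1a, Ccng1, Mdm2 and Bmi1, and Tbx3 fell.

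In the branch that joins ARF to MDM2 and p53, 3 of 7 genes rose and 0 fell, with a median of 0.74. Because a rise of p53 target genes in these arrays was already known when the list was made, it is not independent evidence of direction. Mdm2, the ubiquitin ligase that ARF binds and that degrades p53, had values of 1.58, 1.86, 3.21 and 3.22 and a change of 1.49 ± 0.23 (limma adjusted p = 0.00382), with 1.51 at its other probe. Cdkn1a, which encodes the CIP/KIP inhibitor p21, had values of 1.60, 1.07, 2.33 and 2.32 and a change of 0.99 ± 0.25 (limma adjusted p = 0.0452). Ccng1, which encodes the p53 target cyclin G1, rose by 0.90 (limma adjusted p = 0.0419), with 1.14 at its other probe. Both FBL-kd values lay above both controls for all 3, a pattern held by 21.8% of all genes. These 3 were picked as genes that rose, so their separation is a description. The calls of Cdkn1a and Ccng1 ended within the shared slide and without FBL-kd 1. That of Ccng1 also ended with quantile normalization (limma adjusted p = 0.0507).

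Among 19 genes listed for regulation of the Cdkn2a locus, which include its neighbour Mtap, 1 rose and 1 fell, with a median of −0.02. Bmi1, a Polycomb protein known to repress that locus, had values of −5.58, −4.64, −4.05 and −3.63. It was not well above background on 1 of the controls, so it entered the test through the FBL-kd arrays alone. Its change was 1.27 ± 0.32 (limma adjusted p = 0.0428), and it was 0.11 with normexp correction (limma adjusted p = 0.889) and 0.81 without control 1 (0.0650). Its call also ended within the shared slide, with quantile normalization (limma adjusted p = 0.113) and with the percentile over bright probes (0.0760). Tbx3, a T-box repressor of the locus and part of the stem cell network, had values of 3.52, 3.67, 2.74 and 2.67. Tbx3 fell by 0.89 ± 0.22 (limma adjusted p = 0.0446). The call ended with quantile normalization (limma adjusted p = 0.0781) and with the percentile over bright probes (0.0618). It also ended within the shared slide and without FBL-kd 1.

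The regulators of p27 level held 0 calls among 13 genes, with changes from −0.60 to 0.80 and a median of −0.13. Rbx1, the RING subunit of the SKP2 ligase and the brightest, had a change of −0.07 ± 0.24 (limma adjusted p = 0.911). The genes in and near the imprinted domain around Cdkn1c, Igf2 and Ins2 among them, held 0 calls among 11, with changes from −0.48 to 0.71 and a median of 0.12. Phlda2, an imprinted growth regulator and the brightest, had values of 6.85, 6.20, 6.07 and 6.27 and a change of −0.36 ± 0.27 (limma adjusted p = 0.518). In both lists the brightest gene's groups overlapped.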

How the data were processed

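Total RNA labelled with Cy3 was hybridised to 1-colour Agilent arrays, 1 per sample. The spot intensities deposited by the authors come from Agilent Feature Extraction 10.7.3.1, per the file headers and the submitters' processing notes, with background subtracted and no scaling between arrays. The authors' value table is on a log2 scale. It equalled, to within 0.01 for 99.8% of entries per array, the log2 processed intensity less the array's 75th percentile. Its software is not given in the sources here. Spots flagged as outliers (96 to 138 per array) and 50 probes with no unflagged spot on some array were left out.

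Probes were named through their accession by RefSeq gene tables (GRCm38.p6), with 24375 probes matched to 1 symbol and 16799 unmatched. The array design refers to another build, so probe coordinates are not given. The 25077 tested probes were fitted in R 4.3.3 by limma 3.58.1, using lmFit, then eBayes with its default prior. Tests were two-sided and p-values were adjusted by Benjamini-Hochberg over these probes. Sample titles gave the groups.

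The members and lists were chosen with earlier results of these data known. Values are given for Fbl, every member probe, up to 2 rising and 2 falling called genes of each list (the brightest gene where none passed), and the 3 genes nearest to the member with the smallest p. Ccng1, Cdk6, Mtap, Elf5, Sox17 and Thy1 were named outside this rule after their values were seen. The 15 alternatives cover signal, background correction, scaling, filter, prior, probes per gene, slide, replicate block and each sample left out.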

Additional observations from a re-analysis of the deposited data

How the results depend on the processing

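Cdkn2b, Rb1 and Fbl kept their direction and passed in 14 of 15 alternatives, which are not independent of each other. Slide as a block is the same fit as leaving out FBL-kd 2. The alternatives in filter, prior, probes per gene and replicate block leave the changes of these genes as reported. With no filter on dim probes, which tests 41124 probes, 0 probes rose and 0 fell in limma (3878 had an unadjusted p under 0.05), and the adjusted p was 0.0997 for Cdkn2b and Fbl and 0.127 for Rb1; that fit also left 0 member probes and 0 list genes rising and 0 list genes falling. Over all probes, 1457 rose and 1195 fell with trend and robust, 462 and 224 with slide as a block, 1006 fell with trend and 411 with quantile normalization, and leaving out 1 sample gave 462 to 3012 rises and 224 to 2370 falls. Member probes rising numbered 4 with trend and robust and 2 to 4 with 1 sample left out, and member probes falling 0 to 1, that of Rbl1 being the 1. List genes rising numbered 2 with quantile normalization, 8 with trend, 9 with trend and robust, 1 with slide as a block and 1 to 13 with 1 sample left out. List genes falling numbered 2 with normexp and with the filter on all arrays, 0 with slide as a block, quantile normalization or scaling on bright probes, 3 with trend, 5 with trend and robust, and 0 to 11 with 1 sample left out. Signs turned for Rbl1 with normexp (0.0052) and for Cdkn2d with slide as a block (−0.046). Leaving out 1 sample turned them too, with ranges of −0.699 to 0.0236 for Rbl1, −0.227 to 0.291 for Cdkn2d, −0.0557 to 0.141 for Cdkn2c and −0.0687 to 0.308 for Cdkn1c. The Rbl2 probe A_52_P117325 also passed with trend (limma adjusted p = 0.0439), and both Rbl2 probes passed with trend and robust (0.0306 and 0.0191). Normexp used the median signal because the files hold no mean signal.

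Deviations of same-numbered samples correlated at 0.023 over 2 pairs, so the numbers were not taken to pair samples. With a replicate block 1275 probes rose and 1014 fell, 4 member probes rose, both Rbl2 probes among them (limma adjusted p = 0.00583 and 0.0453), and 2 list genes fell. The fits with normexp, slide or replicate block, or without an FBL-kd sample gave all probes 1 variance. A lone sample was assumed to vary like the other group. The controls differed more than the FBL-kd samples (standard deviation over probes 0.51 and 0.31).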
